A study of Mus musculus with 1307 samples.

Results

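The genes described here are 8 genes of endothelial lipid uptake and lipid droplet formation in cells of the mouse heart: Gpihbp1, Cd36, Fabp4, Fabp5, Aqp7, Lpl, Plin2 and Plin4. They were chosen by symbol from the 46517 genes of the deposited count table, and all 8 were found. Their levels were read in all 1307 cells, each sorted singly from an enzymatically dissociated heart. Smart-Seq2 was used, which copies whole transcripts and carries no molecular identifiers. The ACTA2GFP:CSPG4dsRED strain, called double-reporter below, gave 368, 245 and 336 cells of 3 mice. The CSPG4dsRED strain gave 3 cells of 1 mouse, and the ACTA2GFP strain gave 3 cells of 1 mouse. C57BL/6, which carries no reporter in the labels, gave 347 cells of its mouse 1, 4 of its mouse 2 and 1 of its mouse 3. All mice were 8 to 30 weeks old, and no treatment is named. The labels call double-reporter mouse 3 and 1 of the 3 ACTA2GFP cells female, and the other cells male. The sort gate is not stated. By their names, the reporters follow the Acta2 and Cspg4 genes, which mark mural cells, and C57BL/6 mouse 1 gave nearly all of the endothelial cells, on a plate called the endothelial plate below. The mouse is the replicate. The 3 double-reporter mice filled 3 other plates, so that mouse and plate cannot be told apart.

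In the heart, triglyceride-rich lipoproteins are unloaded at the capillary wall. Lipoprotein lipase (Lpl) is made by parenchymal cells and is carried to the capillary lumen by GPIHBP1, a GPI-anchored protein of capillary endothelial cells, where it releases fatty acids. CD36 takes up long-chain fatty acids, the small binding proteins FABP4 and FABP5 carry them through the cytosol, and aquaporin 7 (Aqp7) is a channel for water and glycerol. Perilipins coat lipid droplets, with Plin2 the form found in most cells and Plin4 a form known from fat and muscle.

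Classes were rebuilt by clustering with the 8 genes and all lipid and marker genes withheld, so that none of the levels below formed a class. A cell is called capillary-like where it was endothelial-like and held at least 200 counts per 1000000 counts (CPM) of Aplnr and Car4 together, and other endothelial-like where it held less. This gave 150 capillary-like and 110 other endothelial-like cells, of which 147 and 100 were of C57BL/6 mouse 1. That mouse also gave 65 of 70 endocardial-like and 11 of 14 lymphatic endothelial-like cells. The double-reporter mice gave 225 smooth muscle-like cells, with 76 of them in mouse 2 and 23 in mouse 3. Mice 1, 2 and 3 gave 48, 14 and 9 pericyte-like cells and 77, 115 and 252 fibroblast-like cells. A cluster of 100 cells (cluster 5) that held smooth muscle, pericyte and fibroblast markers together stayed unnamed. The endothelial label was itself given by 10 endothelial markers, so their level is no separate check of it. In C57BL/6 mouse 1 none of the 247 endothelial-like cells held under 1000 CPM summed over these markers. The Schwann-like cells of that mouse held 4121 CPM of them, so that passing 1000 CPM does not by itself mark an endothelial cell there. Capillary markers outside the rule (Rgcc, Btnl9, Cd300lg, Slc28a2, Timp4 and Kdr) summed to 5063 CPM in capillary-like, 3837 CPM in other endothelial-like and 1098 CPM in endocardial-like cells of that mouse. Kdr is also among the 10 endothelial markers. Over all mice Btnl9 went the other way, at 433 CPM in capillary-like and 721 CPM in other endothelial-like cells. The others of the list were higher in capillary-like cells. Outside that mouse the endothelial label does not hold throughout, since 6 of the 13 endothelial-like cells held under 1000 CPM of endothelial markers. Of these 6 cells, 3 held between 28557 and 55561 CPM of cardiomyocyte markers. Cells held between 50476 and 811982 counts each, with a median of 274702, and no 2 cells had identical values.

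The build named in the submitters' processing notes is GRCm38, and the GENCODE M21 annotation of that build lists all 8 as protein-coding genes. Fabp5 (3:10012548-10016607, plus strand) and Fabp4 (3:10204088-10208576, minus strand) lie on the same chromosome, as do Aqp7 (4:41033074-41048139, minus) and Plin2 (4:86648386-86670060, minus). Cd36 spans 5:17781690-17888801 (minus), Lpl 8:68880491-68907448 (plus), Gpihbp1 15:75596628-75599481 (plus) and Plin4 17:56100591-56109803 (minus). RefSeq windows from 250 bases before to 50 bases after the start were at hand for 4 of the 8 genes (Cd36, Aqp7, Plin2, Plin4). The windows of Cd36 and Aqp7, high in the endothelium, and of Plin4, the member highest in smooth muscle-like cells relative to the other classes, are printed here. All are on the minus strand of GRCm38.p6, read 5′ to 3′, and capitals mark every AGGTCA (a nuclear receptor half-site, the kind of site that PPAR factors bind in pairs) and GGGCGG (a GC box), on either strand.
Cd36, chr5:17835847-17836146: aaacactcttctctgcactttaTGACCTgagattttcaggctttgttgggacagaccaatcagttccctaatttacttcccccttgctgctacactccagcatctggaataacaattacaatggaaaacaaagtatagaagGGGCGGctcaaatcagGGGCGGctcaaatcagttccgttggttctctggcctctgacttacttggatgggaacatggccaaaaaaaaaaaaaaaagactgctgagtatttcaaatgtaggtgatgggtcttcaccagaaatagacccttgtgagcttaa
Aqp7, chr4:41048087-41048386: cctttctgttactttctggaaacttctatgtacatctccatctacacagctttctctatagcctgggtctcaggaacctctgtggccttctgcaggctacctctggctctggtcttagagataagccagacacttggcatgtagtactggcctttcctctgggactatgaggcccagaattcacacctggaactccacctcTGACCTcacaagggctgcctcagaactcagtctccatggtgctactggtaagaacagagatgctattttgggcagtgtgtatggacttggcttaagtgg
Plin4, chr17:56109733-56110032: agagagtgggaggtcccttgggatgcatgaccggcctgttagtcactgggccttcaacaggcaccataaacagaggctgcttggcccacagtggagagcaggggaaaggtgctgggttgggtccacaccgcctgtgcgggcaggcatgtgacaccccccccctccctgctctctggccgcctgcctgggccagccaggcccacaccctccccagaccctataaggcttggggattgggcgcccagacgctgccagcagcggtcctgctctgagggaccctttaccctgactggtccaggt
Cd36 held 1 half-site, on the opposite strand, and 2 GC boxes. Aqp7 held 1 half-site, also on the opposite strand, and Plin4 held neither motif. Of 2 windows listed for Aqp7, only that nearest the annotated start of the gene was searched. Plin2 (chr4:86670010-86670309) held 1 of each. TATAAA, searched in the same way, was in none of the 4 windows. Of 32544 distinct windows of the same length, 16.2% held the half-site, 35.9% the GC box and 13.6% TATAAA on either strand. The Cd36 window lies inside the annotated span of the gene, which has further starts upstream.

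Cd36, Fabp4, Gpihbp1, Lpl and Aqp7 were among the most counted genes in capillary-like cells of C57BL/6 mouse 1. Cd36 reached 4607 CPM (95% Poisson interval 4588 to 4627) over 147 cells and was the 5th most counted of 21717 genes there. Fabp4 reached 2372 CPM (rank 16), Gpihbp1 1204 CPM (rank 63), Lpl 934 CPM (rank 95) and Aqp7 830.4 CPM (rank 120). Fabp5 followed at 302 CPM and Plin2 at 228 CPM, while Plin4 was at 5.70 CPM, of which 52.1% came from 1 cell. All intervals of counts and shares in the text cover counting error only, since amplified reads are not independent molecules. Levels of different genes can be set side by side only per length of transcript. On that scale the order in capillary-like cells was Fabp4 (2648 CPM per kb), Gpihbp1 (1460), Cd36 (1355), Aqp7 (329), Fabp5 (306), Lpl (227), Plin2 (121) and Plin4 (0.99). Counting error is far smaller than each of these steps, but with 1 mouse the spread between animals is unknown, so neighbours in the order cannot be told apart by test. Fabp5 has processed copies elsewhere in the genome, and how reads shared with them were counted is not given in the sources used here.

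**Figure D1:**
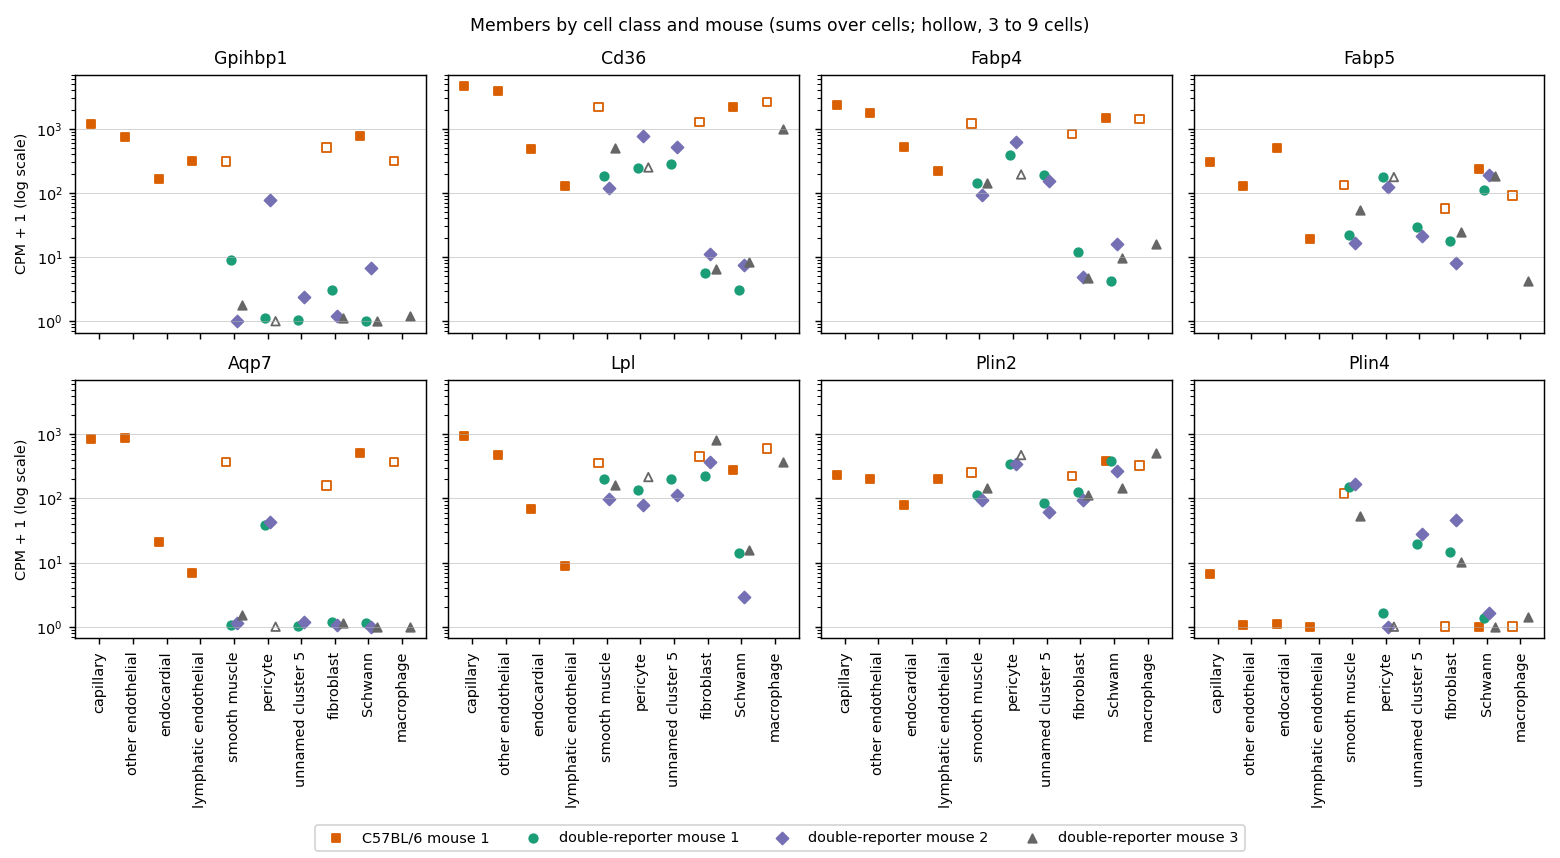
CPM + 1 on a log axis for each of the 8 genes, summed over the cells of a class in 1 mouse (filled, 10 cells or more, hollow, 3 to 9 cells). Gpihbp1 and Aqp7 of the double-reporter mice lie near the bottom in most classes, while in C57BL/6 mouse 1 the Schwann-like, fibroblast-like and smooth muscle-like sums are high as well as the endothelial ones. Aqp7 of that mouse is low in endocardial-like (19.7 CPM) and lymphatic endothelial-like cells (5.96 CPM). The few endothelial cells of the double-reporter mice are not drawn.

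Those levels have to be read against the background of the endothelial plate. Schwann-like cells, glial cells of peripheral nerves that should lack the endothelial genes, held 775 CPM of Gpihbp1 on the endothelial plate (10 cells), against 0, 5.78 and 0 CPM in the 3 double-reporter mice. Cd36 in them was at 2183 CPM on the endothelial plate, against 2.06, 6.43 and 7.27 CPM. Fabp4 was at 1477 CPM there, against 3.30, 14.8 and 8.72 CPM, and Aqp7 at 514 CPM, against 0.14, 0 and 0 CPM. Lpl was at 275 CPM against 13.3, 1.93 and 14.9 CPM, whereas Fabp5 (232 CPM against 111, 189 and 181 CPM) and Plin2 (384 CPM against 378, 269.9 and 142 CPM) lay much nearer to the other plates. Of 14806 genes with at least 10 counts in these cells, 32.3% were higher on the endothelial plate than in each of the other mice and 18.7% were lower, and the 7 members that had so many counts were all higher. The endothelial marker sum moved with them, at 4121 CPM in the Schwann-like cells of the endothelial plate and between 5.23 and 24.7 CPM in those of the double-reporter mice. The part of the endothelial signal in these levels was not tested.

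The background was uneven between wells. Of the 24 wells of the endothelial plate that held Schwann-, macrophage-, smooth muscle-, fibroblast- or pericyte-like cells, 20 had over 500 CPM of endothelial markers. None of the 64 Schwann-like cells of the double-reporter mice did. Cd36 in these 24 wells had its lowest value at 51.8, its median at 2215 and its highest at 4847 CPM, and Gpihbp1 at 5.98, 493 and 1670.0 CPM. The upper wells thus reached the capillary level. The highest Cd36 well was macrophage-like, a class that held Cd36 at 989 CPM in double-reporter mouse 3 as well. The part of these values that is the cells' own was not tested. The highest Schwann-like well held 4715 CPM of Cd36. Aqp7 reached 1457 CPM, with a median of 210.2 CPM and a lowest value of 0. Over all 347 wells of the plate, Cd36 never fell below 21.4 CPM and Fabp4 never below 17.5 CPM, so that 100% of wells held counts of both, endothelial or not. The Schwann-like cells of the endothelial plate (median depth 444860 counts) all held both, whereas 45.3% of those of the double-reporter mice (305603 counts) held Cd36 and 25% held Fabp4. A share of cells with a count therefore says nothing about these genes on the endothelial plate, and only their size does.

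**Figure D2:**
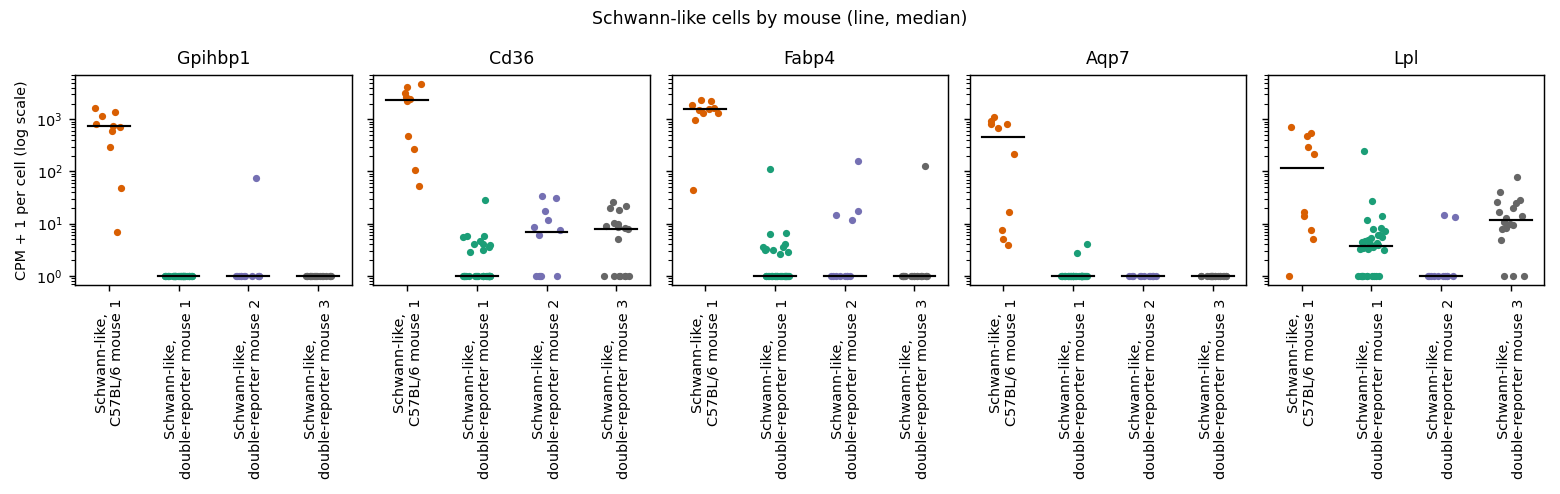
CPM + 1 per cell on a log axis for 5 genes in the Schwann-like cells of C57BL/6 mouse 1 (10 cells) and of the 3 double-reporter mice (34, 12 and 18 cells), with the median as a line. Most cells of C57BL/6 mouse 1 lie above all cells of the other mice for Gpihbp1, Cd36, Fabp4 and Aqp7.

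Set against that background, capillary-like cells held more of each member but Plin2. Gpihbp1 was at 1204 CPM in capillary-like cells and 775 CPM in the Schwann-like cells of the same plate, Cd36 at 4607 and 2183 CPM, Fabp4 at 2372 and 1477 CPM, Aqp7 at 830.4 and 514 CPM, and Lpl at 934 and 275 CPM. The gap was smallest for Fabp5 (302 and 232 CPM), and Plin2 was lower in capillary-like cells (228 and 384 CPM). Plin4 had 5.70 CPM in capillary-like cells and no count in the 10 Schwann-like cells, which allows up to 0.69 CPM. No test is possible with 1 mouse. The few endothelial cells from other plates are the only values free of the endothelial plate. Both capillary-like cells of the CSPG4dsRED mouse held Gpihbp1 at 3118 and 3329.8 CPM, Cd36 at 3550 and 7663 CPM and Fabp4 at 8598 and 8216 CPM. In 1 capillary-like cell of double-reporter mouse 2 they were at 673, 8787 and 2900.3 CPM. Aqp7 ranged from 15.4 to 887 CPM in these 3 cells. Lpl was at 30.9 and 16.7 CPM in the CSPG4dsRED cells, or 2 counts and 1 count at depths of 64780 and 59764 counts, and at 1218 CPM in the double-reporter cell. Plin2 had no count in any of the 3.

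The 3 other endothelial-like cells of C57BL/6 mouse 2 held Cd36 at 3962, 3648 and 8434 CPM and Fabp4 at 4061, 6903 and 6600.0 CPM. Gpihbp1 in them ranged widely, at 99.1, 4739 and 1932 CPM, and Aqp7 was at 357, 0 and 0 CPM. They also held 4081, 3094 and 2948 CPM of cardiomyocyte markers, whose part in these values was not tested. In the 7 endothelial-like cells off the endothelial plate with over 1000 CPM of endothelial markers, the lowest Cd36 value was 245 CPM, in the remaining cell, of double-reporter mouse 1, which had no Gpihbp1 or Aqp7 count.

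Within the endothelium of C57BL/6 mouse 1, 7 of the 8 genes were higher in capillary-like than in other endothelial-like cells, by unequal amounts. Lpl, the lipase, was at 934 CPM in capillary-like and 467 CPM in other endothelial-like cells. Fabp5 was at 302 and 127.3 CPM, Gpihbp1 at 1204 and 735 CPM, Fabp4 at 2372 and 1756 CPM, and Cd36 at 4607 and 3932 CPM. Plin2 was at 228 and 197 CPM. Plin4 was at 5.70 and 0.07 CPM, the former mostly from 1 cell, with a median of 0 CPM per cell in both classes. Aqp7, the glycerol channel, went the other way at 830.4 and 880.0 CPM. On the log2(CPM + 1) scale these differences were 0.999 for Lpl, 1.24 for Fabp5, 0.71 for Gpihbp1, 0.43 for Fabp4 and 0.23 for Cd36. They were 0.21 for Plin2, 2.65 for Plin4 and -0.08 for Aqp7. The Poisson intervals did not overlap for any of the 8 members, but of 18159 genes with at least 10 counts in both classes together, 40.6% were higher in capillary-like cells by that rule and 33.8% lower. The intervals cover counting error in 1 mouse, and there is no test of the class. Median values over cells spread the genes further, with Lpl at 852 CPM per capillary-like cell and 142 CPM per other endothelial-like cell, and Plin2 at 42.0 and 5.87 CPM. The threshold of 200 CPM left 6 cells just above it, up to 400 CPM, and 4 just below, down to 100 CPM. The cells just above held Cd36 at 4617 CPM and Lpl at 557 CPM, and those just below held them at 4481 and 671 CPM.

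Much of the difference followed 1 of 2 clusters among the other endothelial-like cells. Of those 100 cells, 51 shared cluster 0 with 140 of the capillary-like cells, and 49 were in cluster 10. The arterial marker sum in cluster 10 was 4718 CPM, against 1092 CPM in the 51 cells of cluster 0 and 286 CPM in the capillary-like cells of cluster 0. Other endothelial-like cells of cluster 10 held Gpihbp1 at 416 CPM, against 1160.3 CPM in those of cluster 0. Lpl was at 172 CPM in cluster 10 and 862 CPM in cluster 0, Cd36 at 3117 and 5019.95 CPM, Fabp4 at 1315 and 2344 CPM, Aqp7 at 654 and 1182 CPM, and Fabp5 at 89.1 and 178 CPM. The sums of the other endothelial-like cells of cluster 0 were thus near the capillary level for Gpihbp1, Cd36, Fabp4 and Lpl, and above it for Aqp7. By cell, Lpl was lower in them, with a median of 541 CPM and 64.7% of cells at 100 CPM or more, against 889 CPM and 85.7% in the capillary-like cells of cluster 0. Those 51 cells also held 2892 CPM of cardiomyocyte markers, against 383 CPM in cluster 10 and 1491 CPM in capillary-like cells of cluster 0. The part of that signal in the levels was not tested. Among other endothelial-like cells, Lpl was at 303, 468 and 947 CPM in those with under 500, 500 to 2000 and 2000 or more CPM of cardiomyocyte markers, and Gpihbp1 at 583, 776 and 1102 CPM. Among capillary-like cells, Lpl was at 998, 873 and 933 CPM in the same 3 bins, with no such order, whereas Cd36 was at 4449, 4563 and 4903 CPM, Gpihbp1 at 1137, 1217 and 1284 CPM and Aqp7 at 745, 796 and 1006 CPM.

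**Figure D3:**
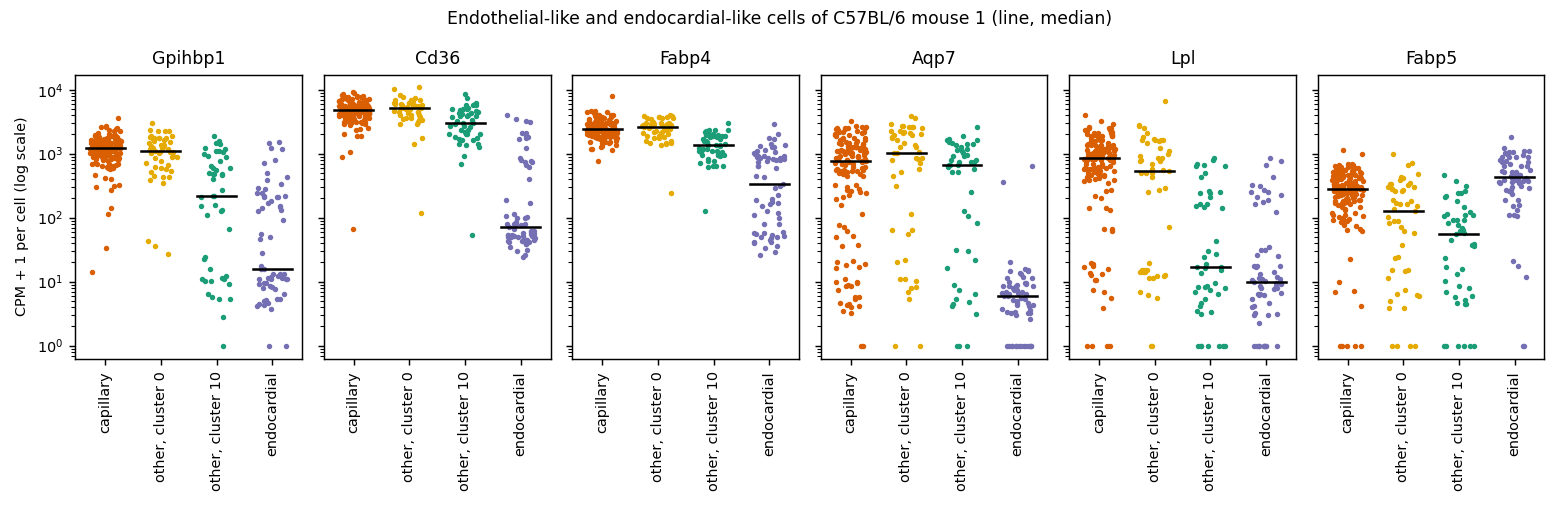
CPM + 1 per cell on a log axis for 6 genes in capillary-like cells (147), other endothelial-like cells of cluster 0 (51) and of cluster 10 (49), and endocardial-like cells (65) of C57BL/6 mouse 1, with medians as lines. Cd36 and Fabp4 form a narrow band in capillary-like cells, whereas Aqp7 and Lpl have a tail of low cells. Fabp5 is highest in endocardial-like cells.

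The genes also differed in how evenly cells held them. In capillary-like cells, 146 of 147 held at least 100 CPM of Cd36, 147 of Fabp4 and 145 of Gpihbp1. Aqp7 reached 100 CPM in 114 cells, Lpl and Fabp5 in 85.7% of cells each, Plin2 in 73 and Plin4 in 2. The genes Gpihbp1, Cd36, Fabp4, Aqp7 and Lpl all reached 100 CPM together in 97 capillary-like cells (66.0%), in 38 of 100 other endothelial-like cells and in 1 of 65 endocardial-like cells. In the Schwann-like cells of the plate 5 of 10 did so. As a description over the 147 capillary-like cells, which share 1 plate, Cd36 and Fabp4 varied together (Spearman rho 0.52), with the next pair, Cd36 and Aqp7, at 0.32 and Lpl with Aqp7 at -0.02. Cd36 and Fabp4 also share a relation to depth, since their CPM was lower in deeper cells, with rho of -0.53 and -0.63 against the total counts of the cell. The median capillary-like cell held 722 counts of Fabp4, or 0.81 per base of its 896-base transcript, and the highest cell 1.97 per base. For Cd36 the median was 0.44 counts per base and for Lpl 0.07. Whether reads of the same position had been removed is not given in the sources used here.

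Endocardial-like cells, which line the heart chambers, were a contrast to the capillary. Over 65 cells of C57BL/6 mouse 1 they held Cd36 at 484 CPM against 4607 CPM in capillary-like cells, Gpihbp1 at 165 against 1204 CPM, Fabp4 at 528 against 2372 CPM, Lpl at 67.9 against 934 CPM and Aqp7 at 19.7 against 830.4 CPM. All 5 lay below the Schwann-like cells of the same plate (2183, 775, 1477, 275 and 514 CPM). Those cells held 750 CPM of Aplnr and Car4 together, against 7.57 CPM in endocardial-like cells, so they are not an even floor. In the 2 Schwann-like cells with at most 500 CPM of endothelial markers, the 5 genes were at 142, 242, 629, 2.35 and 3.53 CPM. Cd36, Lpl and Aqp7 of endocardial-like cells lay above these, and Gpihbp1 and Fabp4 below. Whether any of the 5 stands above background there thus cannot be told. The median endocardial-like cell held 71.7 CPM of Cd36, 14.8 CPM of Gpihbp1 and 4.93 CPM of Aqp7. Aqp7 amounted to 4.07% of Cd36 in endocardial-like cells, against 18.0% in capillary-like cells and 23.5% in the Schwann-like wells. Fabp5 was the exception, with 510.0 CPM (interval 500.5 to 519.6) in endocardial-like cells, against 302 CPM in capillary-like cells, and 60 of 65 cells held at least 100 CPM. Off the endothelial plate, 5 endocardial-like cells held Fabp5 at 249 CPM in double-reporter mouse 1, at 426, 146 and 105 CPM in double-reporter mouse 2 and at 2353 CPM in the CSPG4dsRED mouse. Cd36 was at 0 CPM in the cell of double-reporter mouse 1, at 0, 3775 and 2968 CPM in those of mouse 2 and at 249.6 CPM in that of the CSPG4dsRED mouse. The 2 cells high in Cd36 also held Lpl, at 1038 and 768 CPM, but no Fabp4 or Aqp7 count. None of the 4 double-reporter cells held an Aqp7 count. Lymphatic endothelial-like cells (11) held Gpihbp1 at 314 CPM, Cd36 at 127.1 CPM, Fabp4 at 222 CPM and Fabp5 at 18.4 CPM, all below the Schwann-like cells of the plate. Gpihbp1 was also present in all 3 lymphatic cells from other plates, at 216 and 579 CPM in double-reporter mouse 1 and 558 CPM in mouse 2, with no Aqp7 count.

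The double-reporter mice, whose Schwann-like cells were nearly free of the endothelial members, allow tests between smooth muscle-, pericyte- and fibroblast-like cells, on the summed counts of each class in each mouse, given 10 cells or more (edgeR quasi-likelihood test with the mouse as a block). The fit also held Schwann-like cells. Pericyte-like cells of mouse 3 (9 cells) were too few to enter it, so that smooth muscle- and fibroblast-like sums came from 3 mice and pericyte-like sums from 2. All 8 members were among the 17352 genes tested.

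Cd36, the fatty acid transporter, was far higher in the class sums of mural than of fibroblast-like cells. In smooth muscle-like cells it was at 184, 117 and 505 CPM in double-reporter mice 1, 2 and 3, against 4.55, 10.1 and 5.43 CPM in fibroblast-like cells. Each smooth muscle value was above each fibroblast value. The fitted log2 change was 5.28 ± 0.65 (SE, adjusted p = 0.00356). In pericyte-like cells Cd36 was at 240.0, 785 and 249 CPM, the last from the 9 cells of mouse 3. Their log2 change against fibroblast-like cells was 6.27 ± 0.68 (adjusted p = 0.00295). Smooth muscle- and pericyte-like values overlapped, and their difference of -0.99 ± 0.64 did not pass the test (adjusted p = 0.519). In pericyte-like cells, 1 cell gave 34.5%, 69.7% and 72.5% of the Cd36 counts of mice 1, 2 and 3, so these sums rest on few cells. Smooth muscle-like cells of cluster 7, described below, held 16.4, 2.19 and 1.25 CPM in mice 1, 2 and 3. In mice 2 and 3 that is below the fibroblast-like value. Cluster 1 of mouse 3 had 29.0% of its Cd36 counts from 1 cell.

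Fabp4 followed Cd36. It was at 142, 91.5 and 143 CPM in smooth muscle-like cells, against 10.8, 3.82 and 3.68 CPM in fibroblast-like cells, again without overlap (log2 change 4.45 ± 0.70, adjusted p = 0.0114). Pericyte-like cells held 397, 621 and 193 CPM, higher than fibroblast-like cells by 6.30 ± 0.79 on the log2 scale (adjusted p = 0.00479). Against pericyte-like cells, smooth muscle-like cells were at -1.85 ± 0.72, which did not pass (adjusted p = 0.284). Fabp4 was more evenly held than Cd36, with 62.5%, 71.4% and 55.6% of pericyte-like cells at 100 CPM or more, where Cd36 reached it in 20.8%, 21.4% and 33.3%.

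Fabp5 was higher in pericyte-like cells, at 174, 125 and 176 CPM, than in fibroblast-like cells, at 17.0, 7.09 and 23.7 CPM. The log2 change was 3.63 ± 0.61 (adjusted p = 0.0169). Smooth muscle-like cells held 21.2, 15.4 and 53.9 CPM, and neither their difference from fibroblast-like cells (0.91 ± 0.52, adjusted p = 0.538) nor that from pericyte-like cells (-2.73 ± 0.61, adjusted p = 0.071) passed. Schwann-like cells of the same mice, at 111, 189 and 181 CPM, were at the pericyte level.

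The sum of the 10 endothelial markers moved with these genes. It was 493, 433 and 642 CPM in smooth muscle-like cells, 1251, 1521 and 1049.6 CPM in pericyte-like cells and 204.5, 218 and 214 CPM in fibroblast-like cells. In mural cells the sum was mostly Esam. Over all mice Esam was at 1046 CPM in pericyte-like, 436 CPM in smooth muscle-like and 17.1 CPM in fibroblast-like cells. Pecam1, the next highest in mural cells, was at 98.4 CPM in pericyte-like and 40.1 CPM in smooth muscle-like cells. Cells picked by this sum are thus largely picked by Esam, and how far it stands for endothelial signal was not tested. Gpihbp1, which marks the capillary, was at 7.95, 0 and 0.81 CPM in smooth muscle-like cells, 0.14, 76.3 and 0 CPM in pericyte-like cells, and at most 2.05 CPM in fibroblast-like cells. Aplnr and Car4 together held at most 0.27 CPM in smooth muscle-like cells, and 0, 81.9 and 0 CPM in pericyte-like cells. Without cells over 500 CPM of endothelial markers, Cd36 was still at 76.3, 117 and 408 CPM in smooth muscle-like cells, against 4.95, 11.1 and 5.75 CPM in fibroblast-like cells. The smooth muscle call held, at 4.48 ± 0.72 (adjusted p = 0.0251). In pericyte-like cells that step left 97.2 CPM from 10 cells, 39.7 CPM from 5 and 0 CPM from 2. Of these, only the 10 cells of mouse 1 entered the fit, so that the pericyte arm was 1 sum, assumed to vary like the other groups, and its p-values do not show what held between mice. The Cd36 change against fibroblast-like cells was then 4.56 ± 0.90 (adjusted p = 0.0631). Fabp4 in the same pericyte-like cells was at 406, 331 and 391 CPM, against 397, 621 and 193 CPM with all cells, and its change was 6.09 ± 1.09 (adjusted p = 0.0495). That of Fabp5 was 4.14 ± 0.90 (adjusted p = 0.0822), no smaller than with all cells. For smooth muscle- against fibroblast-like cells the Fabp4 change was 4.02 ± 0.89 (adjusted p = 0.0799), and that call ended.

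Aqp7 was also called higher in pericyte- than in fibroblast-like cells, but on few cells. It was at 37.3, 41.6 and 0 CPM in pericyte-like cells, against 0.19, 0.06 and 0.16 CPM in fibroblast-like cells (log2 change 8.45 ± 1.61, adjusted p = 0.0292). The values rest on 1 cell each, which gave 99.6% of the counts of mouse 1 and 100% of those of mouse 2. All counts came from cells over 500 CPM of endothelial markers, and the 10, 5 and 2 cells of the 3 mice at or under it held none. Most pericyte-like cells were over it, 38 of 48 in mouse 1 and 9 of 14 in mouse 2. A link of Aqp7 to that sum was not tested. Without the cells over 500 CPM no pericyte count was left, so that the call could not stand. Smooth muscle-like cells held 0.08, 0.13 and 0.54 CPM. Gpihbp1 and Aqp7 in smooth muscle- and fibroblast-like cells were too near 0 for a change to be given.

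Within smooth muscle-like cells, Cd36 was high in 1 of 2 clusters. Cluster 1 (77, 56 and 19 cells) held it at 329.6, 169 and 644 CPM, against 16.4, 2.19 and 1.25 CPM in cluster 7 (49, 20 and 4 cells). In each mouse the sum of cluster 1 was above that of cluster 7. By cell the gap was narrow at the median, with 3.99, 0 and 9.92 CPM in cluster 1 and 0 CPM in cluster 7 of each mouse. The endothelial marker sum differed between the clusters in the same direction, at 826, 599 and 807 CPM in cluster 1 and 106, 61.0 and 43.6 CPM in cluster 7. Over smooth muscle-like cells as a class that sum was mostly Esam, as given above. Fabp4 was at 216, 118 and 175 CPM in cluster 1, against 57.3, 32.6 and 27.4 CPM in cluster 7. The share of cluster 1 cells at 100 CPM or more of Cd36 was 35.1%, 17.9% and 42.1%. These cluster differences were not tested, as they were chosen after their values were seen. The unnamed cluster 5 also held Cd36, at 280.3 and 523 CPM in mice 1 and 2 (76 and 21 cells), and Fabp4, at 192 and 152 CPM, with endothelial marker sums of 346 CPM in both.

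Plin4 was highest in smooth muscle-like cells. It was at 151, 164 and 52.0 CPM in smooth muscle-like cells, against 0.62, 0 and 0 CPM in pericyte-like cells of mice 1, 2 and 3, where the 3 counts that a result of 0 allows correspond to up to 1.86 and 2.23 CPM in mice 2 and 3. The log2 change was 8.43 ± 1.36 (adjusted p = 0.0233). Fibroblast-like cells held 13.7, 44.6 and 9.13 CPM, below smooth muscle-like cells in each of the 3 mice, with a log2 change of 2.56 ± 0.84 that did not pass (adjusted p = 0.179). They stood above pericyte-like cells (pericyte-like over fibroblast-like -5.87 ± 1.25, adjusted p = 0.0461). The fibroblast-like sums rest on few cells, with 20 of 444 cells at 100 CPM or more and a median of 0 CPM. In mouse 3, 1 cell gave 78.2% of the Plin4 counts of fibroblast-like cluster 3 and 94.1% of those of cluster 4. In mouse 2 the share of 1 cell was 39.7% in cluster 2 and 26.3% in cluster 3. For smooth muscle-like cells of mouse 3 it was 52.3% in cluster 1 and 97.5% in cluster 7. Cluster 1 held Plin4 at 54.6, 158 and 52.6 CPM and cluster 7 at 264, 178 and 49.8 CPM, so that the sums stood apart in mouse 1 and were close in mice 2 and 3. In cluster 1, 10.4%, 26.8% and 10.5% of the cells of the 3 mice reached 100 CPM, against 53.1%, 55% and 25% in cluster 7. Plin4 was nearly absent from the endothelium, at 0.07 CPM in other endothelial-like cells. Adipocyte markers summed to at most 4.58 CPM in the smooth muscle-like cells of each mouse. Adipocytes are another known source of Plin4, and their part in these counts was not tested.

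**Figure D4:**
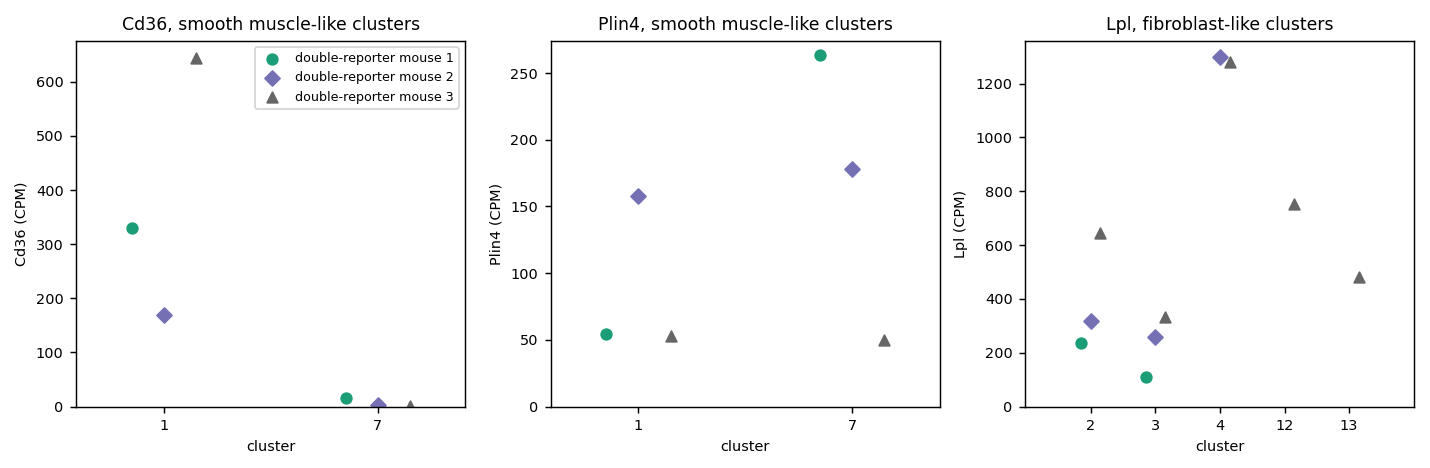
CPM by cluster in the 3 double-reporter mice for Cd36 and Plin4 in smooth muscle-like cells and Lpl in fibroblast-like cells, each point a sum over at least 4 cells of 1 mouse. Cd36 is high in cluster 1 and near 0 in cluster 7, and Lpl is highest in cluster 4.

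Lpl was widely counted outside the endothelium and was highest in fibroblast-like cells, at 223, 372 and 829 CPM. Smooth muscle-like cells held 198, 96.9 and 163 CPM (log2 change against fibroblast-like cells -1.57 ± 0.56, adjusted p = 0.213). Pericyte-like cells held 135, 78.8 and 215 CPM (-1.90 ± 0.67, adjusted p = 0.19). In each mouse the fibroblast value was above both, but neither difference passed. The fibroblast spread followed the clusters. Cluster 4, with 11 cells in mouse 2 and 113 in mouse 3, held 1299.5 and 1282 CPM, and 90.9% and 93.8% of its cells reached 100 CPM. Cluster 2 held 235, 319 and 643 CPM in the 3 mice, and cluster 3 held 109.8, 257 and 333 CPM. Mouse 1 had fewer than 4 cells of cluster 4, so mouse and cluster both differ behind the range of 223 to 829 CPM. Within cluster 2 and cluster 3, mouse 3 was again the highest and mouse 1 the lowest. In mouse 2, cluster 3 also held 1136 CPM of mesothelial markers. Against the 934 CPM of capillary-like cells, the fibroblast-like cells of cluster 4 stood higher, on other plates and with no test. Macrophage-like cells of mouse 3 (30 cells) held Lpl at 367 CPM, with Cd36 at 989 CPM and Plin2 at 508 CPM, but Gpihbp1 at 0.20 CPM and Fabp4 at 14.7 CPM.

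Plin2 was the least class-bound member. It was at 111, 94.2 and 146 CPM in smooth muscle-like cells, 339.6, 345 and 474 CPM in pericyte-like cells, 124, 93.4 and 114 CPM in fibroblast-like cells and 378, 269.9 and 142 CPM in Schwann-like cells. Pericyte-like cells were the highest of the first 3 in each mouse. The change was 1.56 ± 0.44 for pericyte- over fibroblast-like cells (adjusted p = 0.116), -1.41 ± 0.45 for smooth muscle- over pericyte-like cells (adjusted p = 0.2) and 0.15 ± 0.38 for smooth muscle- over fibroblast-like cells (adjusted p = 0.987), and none passed.

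**Figure D5:**
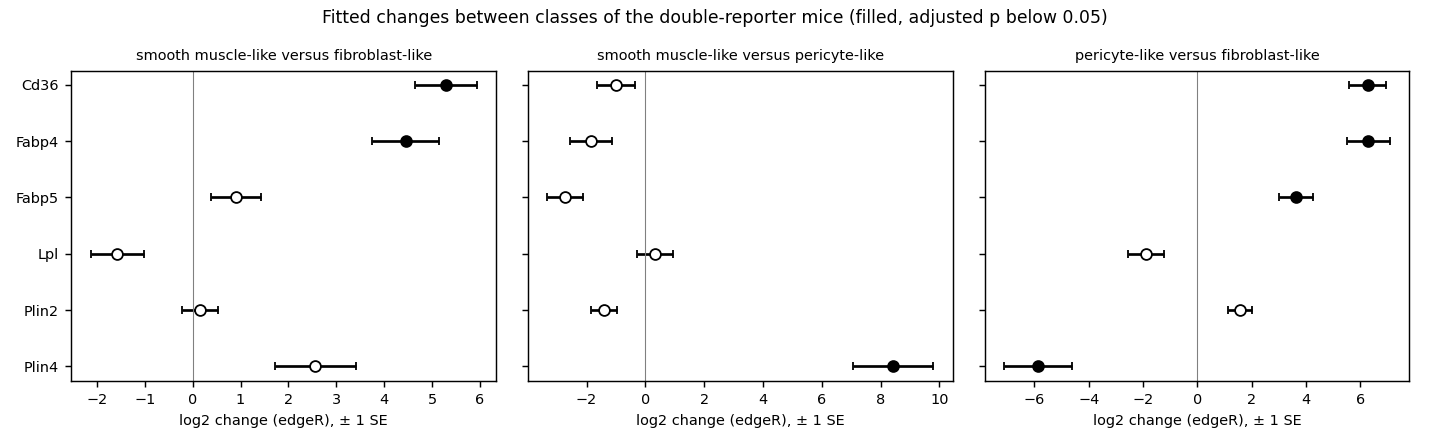
Fitted log2 changes with 1 standard error for 6 members in 3 comparisons between classes of the double-reporter mice, filled where the adjusted p (edgeR, all 17352 genes) was below 0.05. Cd36 and Fabp4 lie to the right of 0 in both comparisons with fibroblast-like cells.

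In counts, 2 of the 8 members were higher and none lower in smooth muscle- than in fibroblast-like cells, where 1.27% of all genes tested were higher and 1.53% lower. The members' median log2 change was 1.58, against -0.14 over all genes. In smooth muscle- against pericyte-like cells 1 member was higher and none lower, where 0.911% of all genes were higher and 0.38% lower, with medians of -1.20 for the members and 0.38 for all genes. For pericyte- against fibroblast-like cells 4 members were higher and 1 was lower, where 0.888% of all genes were higher and 1.54% lower, with medians of 3.03 and -0.58. The calls rest on few mice. With edgeR, leaving out double-reporter mouse 2 gave 0, 0 and 1 called genes, against 485, 224 and 422 with all mice, and none of the member calls held (1745, 1443 and 1619 genes had an unadjusted p under 0.05). Without mouse 1 the 3 counts were 135, 3 and 71, and without mouse 3 they were 148, 137 and 267. Leaving out mouse 1 or 2 left the pericyte arm with 1 sum, assumed to vary like the other groups. Without each mouse in turn, pericyte- over fibroblast-like cells were not called for Fabp5 (3.50 to 3.82, adjusted p = 0.0605 to 0.213), Aqp7 (7.88 to 9.34, adjusted p = 0.0943 to 0.467) or Plin4 (-12.5 to -4.87, adjusted p = 0.0891 to 0.469). Smooth muscle- over pericyte-like cells were not called for Plin4 either (7.85 to 14.8, adjusted p = 0.0572 to 0.379). Without mouse 1 the pericyte arm held no Plin4 count, so that its fitted values of -12.5 and 14.8 depend on the prior count. The 20 member changes that could be followed kept their direction without each mouse in turn, apart from Plin2 without mouse 3 in smooth muscle- against fibroblast-like cells, at -0.10.

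Of the wider set of 94 lipid genes besides the members, 83 were tested. Smooth muscle-like cells had 4 of them higher and 3 lower than fibroblast-like cells, with a median log2 change of -0.05. Among the higher were Pnpla2, the adipose triglyceride lipase, at 243 CPM in smooth muscle-like cells, against 64.5 CPM in fibroblast-like cells over the 3 mice (log2 change 2.09 ± 0.43, adjusted p = 0.0355), and the β-oxidation enzyme Acadm at 329 against 87.9 CPM (1.89 ± 0.39, adjusted p = 0.0355). Cpt1b, the muscle form of the enzyme that admits fatty acids to mitochondria, was at 37.3 against 0.43 CPM (6.97 ± 1.31, adjusted p = 0.0237). The fourth, the transcription factor Tcf15, is a regulator of endothelial lipid genes and lay at a lower level (36.1 against 0.25 CPM). Lower in smooth muscle-like cells were Apoe, the apolipoprotein E gene, at 501 against 2353 CPM (-2.66 ± 0.38, adjusted p = 0.00765), Angptl2 at 229 against 953 CPM (-2.36 ± 0.40, adjusted p = 0.0155) and G0s2, the inhibitor of Pnpla2, at 27.8 against 185 CPM (-2.24 ± 0.42, adjusted p = 0.0244). The Pnpla2 and G0s2 changes were thus of opposite sign. Against pericyte-like cells, smooth muscle-like cells had 1 of the 83 higher, Apoe (501 against 107 CPM), and 3 lower, G0s2 (27.8 against 345 CPM), Angptl2 (229 against 2048 CPM) and Dll4 (0.03 against 31.1 CPM), with a median change of 0.34. Dll4, a Notch ligand of endothelium, lay under the level set for naming genes. Pericyte-like cells had 2 higher than fibroblast-like cells, Notch1 (449 against 78.5 CPM) and Dll4, and 1 lower, Apoe (107 against 2353 CPM), with a median of -0.56. Over all genes the 3 medians were -0.14, 0.38 and -0.58.

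The other genes of the same lists are named here by their CPM per kb in capillary-like cells, the highest 5 of each list whatever their level. Aqp1, a water channel and relative of Aqp7, led the glycerol list at 2543 CPM in capillary-like, 353 CPM in other endothelial-like and 496 CPM in endocardial-like cells, a wider gap between the first pair than for Aqp7. Gpd1l, Gpd2, Gk5 (2.10 CPM) and Gpd1 (0.52 CPM) followed, all under 100 CPM in capillary-like cells. Mgll, the monoglyceride lipase, led the droplet list at 1230.2 and 1385 CPM in capillary- and other endothelial-like cells, followed by Pnpla2, Aup1, Lipe and Hilpda. Apoe led the lipoprotein list at 446 and 434 CPM, though endocardial-like cells held 2844 CPM, followed by Scarb1, Lmf2, Lipa and Hspg2. Fatty acid genes were led by Dbi at 83.9 and 102 CPM, against 222 CPM in the fibroblast-like and 685 CPM in the Schwann-like cells of the double-reporter mice, followed by Fabp3, Acadl, Acadm and Acsl5. Fabp3, the binding protein of heart muscle, was at 23.3 CPM in capillary-like cells with under 500 CPM of cardiomyocyte markers and at 159 CPM in those with 2000 CPM or more. Regulators were led by Nrp1 at 1679 and 1450.1 CPM, followed by Meox2, Epas1, Tcf15 and Flt1. Meox2 and Tcf15, which are known to act together on Cd36 and fatty acid uptake in mouse heart endothelium, were at 453 and 142 CPM in capillary-like, 285 and 81.8 CPM in other endothelial-like, and 30.8 and 2.32 CPM in endocardial-like cells.

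Finally, the genes most like each member were read over 19 sums of 1 class in 1 mouse, as a description, by Pearson's r of log2(CPM + 1) among 8749 genes. The sums of C57BL/6 mouse 1 share a plate and its background, which ties endothelial genes together. Gpihbp1 was most like the endothelial genes Myct1 (r = 0.98), Kdr (0.97) and Cdh5 (0.97). Cd36 was most like Fabp4 (0.89), and Fabp4 like Esam (0.89) and Cd36, followed by Cav2 (0.86). C920021L13Rik (0.89) and BC028528 (0.85) stood beside Fabp4 for Cd36. Aqp7 was most like Slc26a10 (0.96), Gpr4 (0.92) and Dll4 (0.92). Plin4 was most like Gabra3 (0.92), Csdc2 (0.91) and Pi15 (0.90), none of them endothelial markers of the lists used here. Lpl (Msl3, 0.88, Gadd45b, 0.87, and Lnx2, 0.86), Plin2 (Vamp8, 0.88, Casc3, 0.84, and Rhob, 0.84) and Fabp5 (Eif2b1, 0.87, Klk8, 0.84, and Lrrc8c, 0.80) had no endothelial marker of those lists among their 3.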

How the data were processed

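Single mouse heart cells were sequenced with Smart-Seq2, and the deposited table holds raw read counts per gene and cell, whole numbers made by the authors. The submitters' processing notes name featureCounts, Subread, Bowtie2, Bowtie and bcl2fastq, with no role or order, and the build GRCm38 (mm10). For versions, strand and duplicates, the sources used here say nothing. Members and gene lists were chosen with earlier results of these data known.

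CPM is the count divided by all counts of the cell or sum, per 1000000. Cells (all above 10000 counts and 500 genes) were clustered with scanpy 1.11.5 and leidenalg 0.10.2 (Python 3.11.15) on 2000 variable genes, 30 principal components and 15 neighbours at resolution 1, with 285 genes withheld. Naming a cluster took 3 or more markers of 1 class, each at 100 CPM or above and at 2 times its mean over clusters. The second class also had to fall clearly short of the first in its share of markers. No other class could have more markers among the 10 leading genes of the cluster. Between endothelial and endocardial these 2 conditions did not apply, and enough endocardial markers gave that name. Names are rebuilt and may differ from the study's. Scrublet marked 7 doublets, which stayed in. Per-kb levels divide by the longest principal protein-coding transcript of GENCODE M21.

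Sums per mouse and class of at least 10 cells were tested with edgeR 4.0.16 (R 4.3.3; TMM, filterByExpr, quasi-likelihood F test, Benjamini-Hochberg over all genes tested, threshold 0.05) in 1 fit with the mouse as a block, because classes of 1 mouse share an animal. The correlation of deviations from the class means between smooth muscle- and fibroblast-like cells of the same mouse was 0.106, 0.126 and 0.118. The fit was also run on simulated counts, with known changes in the smooth muscle-like sums and no mouse effect. SE is the log2 change divided by the root of the F statistic. Alternatives changed the block, normalisation, tool (DESeq2 1.42.0), filter, mice, cell filters and resolution. Named genes were the 8 members, up to 4 called genes of the other lists each way with an average log2 CPM of at least 4, the 5 highest per kb of each list in the capillary, and the 3 most like each member. Limits from 0 are 3 counts, and intervals are at 95%.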

Additional observations from a re-analysis of the deposited data

How the results depend on the processing

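Of 336 alternatives to the 20 member changes between classes, 281 kept the direction and the side of the threshold, 38 lost the call, 11 gained it and 6 reversed. The 281 include uncalled changes that stayed uncalled, such as every alternative for Lpl, so they are not a share of calls that held. The number of called genes (485, 224 and 422 for smooth muscle- over fibroblast-like, smooth muscle- over pericyte-like and pericyte- over fibroblast-like cells) moved more. DESeq2 called 1755, 2123 and 2548. Both classes fitted alone gave 870 for the first comparison but lost the pericyte- over fibroblast-like calls of Fabp5 (0.0768), Aqp7 (0.184) and Plin4 (0.338), and sums of at least 4 cells gave 348 and 679 for the second and the third. Resolutions 0.5 and 2 gave 302 and 181 for the first. Cells of at least 100000 counts and 2000 genes gave 9 and 24 for the second and the third. Without cells over 500 CPM of endothelial markers the counts were 260, 135 and 158. Leaving out 1 mouse gave 0 to 148, 0 to 137 and 1 to 267. Without the replicate block the counts were 485, 317 and 514, and Aqp7 in smooth muscle- against pericyte-like cells gained a call (adjusted p = 0.0304), with no other member call changed. Cd36 in smooth muscle- over fibroblast-like cells was lost without mouse 1 (adjusted p = 0.0756) and mouse 2 (0.073) alone. Fabp4 there was lost without mouse 2 (0.159), mouse 3 (0.126), endothelial-marker cells (0.0799) and macrophage-marker cells (0.0516). In pericyte- over fibroblast-like cells the stricter cell filter ended the calls of Cd36 (0.085), Fabp4 (0.0722), Fabp5 (0.0899), Aqp7 (0.243) and Plin4 (0.18). Without each mouse in turn Fabp5, Aqp7 and Plin4 there were lost too, and over all alternatives the calls held in 11 of 17, 8 of 15 and 8 of 17. Plin4 in smooth muscle- over pericyte-like cells was lost with that filter (0.117), without each mouse in turn (0.0572 to 0.379) and without endothelial-marker cells (0.0535), while its change stayed at 7.85 to 14.8. Where only 1 pericyte sum was left, it was assumed to vary like the other groups. DESeq2 called Plin4 in smooth muscle- over fibroblast-like cells (0.00162). Reversed values were Plin2 in smooth muscle- over fibroblast-like cells (-0.10 without mouse 3, in a range of -0.10 to 0.27 over the mice left out, and -0.061 and -0.39 at resolutions 0.5 and 2), Fabp5 there (-0.57 at resolution 2) and Aqp7 without endothelial-marker cells (5.38 over pericyte-like cells, and -4.53 for pericyte- over fibroblast-like cells). With no pericyte count left, those 2 fitted values depend on the prior count. Between capillary- and other endothelial-like cells, Aqp7 was at 0.39 with Car4 alone, and Plin2 at -0.068 with Aplnr alone and at -3.1e-05 as a mean of cells. The cause was not tested for any of these. Leaving out cells over 500 CPM of cardiomyocyte markers, fibroblast-like cluster 3 or capillary-like cells of 2000 CPM or more of cardiomyocyte markers was chosen after seeing the data.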

Other observations

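A few wells of the endothelial plate held the members in unlike proportions. A Schwann-like cell had 1471 CPM of Fabp4, 582 CPM of Gpihbp1 and 272 CPM of Cd36 with only 57.4 CPM of endothelial markers and 2.87 CPM of Aqp7. Another had 51.8 CPM of Cd36, 43.9 CPM of Fabp4 and 5.98 CPM of Gpihbp1 with 79.7 CPM of endothelial markers. A fibroblast-like cell held 519 CPM of Fabp4 with 88.8 CPM of endothelial markers and 52.1 CPM of Cd36. The pericyte-like cell of that plate had 1159 CPM of Fabp4 and 77.4 CPM of Cd36, but unlike these wells 3439 CPM of endothelial markers, with 209.5 CPM of Aqp7. Among the 4 smooth muscle-like cells of the endothelial plate, Plin4 was at 479 CPM in 1 and at most 55.6 CPM in the others, beside at most 3.10 CPM in every endocardial-like cell of the plate.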
